A study of Mus musculus with 23 samples.

Results

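Genes of the primitive red blood cell were followed in day 8.5 mouse embryos with and without the transcription factor p53, after a short bath at a normal or a raised temperature. A set of 9 genes was listed by symbol in the annotation of the array: the globins Hbb-bh1, Hbb-y, Hba-x and Hba-a1, the transcription factors Gata1 and Klf1, the erythropoietin receptor Epor, the haem enzyme Alas2 and the water channel Aqp8. Of these 9, 7 have an array feature (a spotted probe) that names no other gene. Hbb-bh1 and Hba-a1 were found only on 4 features that name several genes, so no value of their own can be given. The array has 36227 features, and 18069 genes are named on it.

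Primitive red cells are the first blood cells of the embryo. They arise in the blood islands of the yolk sac, enter the circulation while still nucleated, and carry embryonic haemoglobin made of zeta or alpha chains and epsilon-y or beta-H1 chains. Gata1 binds GATA motifs and Klf1 binds CACCC boxes in the promoters and enhancers of globin, haem and membrane genes, and signals from erythropoietin through its receptor keep maturing red cells alive. Yolk sac endoderm lies against the blood islands and makes plasma proteins such as Afp, Ttr and the apolipoproteins.

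Both parents of the embryos carried 1 mutant p53 allele, and the embryos were held for 10 minutes in water at 38 °C (control) or 43 °C (heat). After collection they were genotyped, and 3 to 7 whole embryos of the same genotype and bath made a pool, from which RNA was put on 1 array. The groups are p53 +/+ (wildtype), +/- (heterozygous) and -/- (null) control pools, with 4 pools each, wildtype and heterozygous heat pools, with 4 each, and null heat pools, with 3. The labels speak of 4 pools per group; the remaining null heat pool is not analysed here. The pools are called biological replicates, but no litter is named, so the p-values measure only the spread between these pools. A pool of whole embryos holds every tissue, and fewer red cells and less RNA per red cell cannot be told apart in it.

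Values are the deposited intensities, in relative units with a median near 1 on the heat arrays. On the control arrays, where many dim cells are empty, the median of the values present is higher. Every log2 fold change is given ± SE after quantile normalization, and every adjusted p is from limma (two-sided, Benjamini-Hochberg over all features tested), and counts as called under 0.05. Only called genes are said to rise or fall. Differences that include a control group were fitted over all 23 arrays and 22490 features, and differences between heat pools over the 11 heat arrays and 22769 features.

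The arrays differ in ways that touch these genes. On each of the 12 control arrays 7576 to 11666 cells are empty, among the dimmest and the brightest features, and on the 11 heat arrays none is. Hba-x is therefore empty on 7 of the 12 control arrays and was tested among heat pools only, and Epor is empty on 1. The heat shock gene Hspb1 rose with heat by 2.38 ± 0.11, 2.05 ± 0.10 and 1.997 ± 0.11 in wildtype, heterozygous and null pools, and the p53 target Ccng1 was lower in null than in wildtype controls (-1.48 ± 0.19, adjusted p = 0.000404). The feature for Trp53 was not tested, so the targeted gene itself could not check the genotype labels. Among control pools, heterozygous A and B were split from heterozygous C and D. A score of that split took the 200 features highest and the 200 lowest in A and B relative to C and D. It was the mean log2 intensity of the highest minus that of the lowest, with red cell and marker genes left out. The score was built from these heterozygous pools, so its separation of them was fixed in advance. It ran from -1.29 to -0.34 in the 4 wildtype controls and heterozygous controls A and B. It ran from -3.12 to -2.37 in heterozygous controls C and D and all 4 null controls, so this split and the null genotype cannot be told apart when null and wildtype controls are compared.

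The promoters of the genes that the results turn on were searched for fixed forms of the motifs of Gata1 and Klf1. RefSeq (GRCm38.p6) gave a promoter for 8 of the 9 genes; Hbb-bh1 was not matched. The 200 bases before the start of transcription are shown 5′ to 3′, with capitals for AGATAA as well as AGATAG and also TGATAA as well as TGATAG (the GATA motif), CCNCNCCC (CACCC box), CCAAT and TATAAA on either strand.
Hbb-y, chr7:103853208-103853407, minus strand: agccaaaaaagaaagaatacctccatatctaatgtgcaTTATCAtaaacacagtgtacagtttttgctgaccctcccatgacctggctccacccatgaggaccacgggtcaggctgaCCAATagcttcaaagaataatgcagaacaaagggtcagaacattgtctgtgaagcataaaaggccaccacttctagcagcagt
Hba-x, chr11:32276400-32276599, plus strand: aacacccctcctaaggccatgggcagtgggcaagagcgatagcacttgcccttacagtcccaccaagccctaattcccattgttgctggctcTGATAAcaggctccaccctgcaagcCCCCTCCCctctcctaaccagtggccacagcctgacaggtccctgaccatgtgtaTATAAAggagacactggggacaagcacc
Alas2, chrX:150547217-150547416, plus strand: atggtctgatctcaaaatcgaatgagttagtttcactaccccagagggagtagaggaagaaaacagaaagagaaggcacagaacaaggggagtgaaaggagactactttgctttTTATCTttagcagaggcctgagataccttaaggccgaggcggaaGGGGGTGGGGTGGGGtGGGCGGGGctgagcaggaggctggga
Klf1, chr8:84901782-84901981, plus strand: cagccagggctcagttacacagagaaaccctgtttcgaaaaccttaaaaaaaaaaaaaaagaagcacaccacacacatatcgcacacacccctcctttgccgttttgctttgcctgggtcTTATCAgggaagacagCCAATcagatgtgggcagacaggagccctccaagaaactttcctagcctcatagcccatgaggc
Epor, chr9:21963577-21963776, minus strand: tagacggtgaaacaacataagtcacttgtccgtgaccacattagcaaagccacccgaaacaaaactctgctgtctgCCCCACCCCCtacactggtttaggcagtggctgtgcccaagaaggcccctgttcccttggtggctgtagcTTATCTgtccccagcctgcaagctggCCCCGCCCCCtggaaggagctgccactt
A GATA motif was found in these windows for 6 of the 8 genes (Hbb-y, Hba-x, Hba-a1, Alas2, Klf1 and Epor), against 21.4% of all 32851 promoters in the table. It lay 162 bases before the start in Hbb-y, 86 in Alas2, 80 in Klf1 and 54 in Epor. The form CCNCNCCC was found for 4 of the 8 (Hba-x, Gata1, Epor and Alas2), against 42.6% of all promoters, and in Epor and Alas2 several matches overlap one another. This form also admits letters without CACCC, such as CCCCTCCC in Hba-x. The letters CACCC outside this form, as in the windows of Hbb-y and Hba-x, were left unmarked and uncounted. CCAAT was found for Hbb-y, Hba-a1 and Klf1 (29.3% of all promoters), TATAAA for Hba-x (9.96%), and none of these letters in the window of Aqp8. These matches describe letters only.

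Globin features were among the brightest on every array, and no globin feature of a single gene passed the test in any comparison. Hbb-y, the epsilon-y chain, read 163, 130, 210 and 118 in wildtype controls A to D and 125, 115, 174 and 210 in heterozygous controls. In null controls it read 145, 156, 109 and 161. The 3 control groups overlap over most of their range.

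In heat pools Hbb-y read 59.9, 131, 152 and 95.1 in wildtype, 111, 79.6, 94.7 and 118 in heterozygous and 121, 129 and 156 in null embryos. Wildtype heat pool A had the lowest value of all 23 arrays, and the null and wildtype pools overlap, with null pool C just above the highest wildtype pool. With heat Hbb-y differed by -0.26 ± 0.22 in wildtype (adjusted p = 0.58), -0.44 ± 0.22 in heterozygous (adjusted p = 0.336) and -0.01 ± 0.24 in null pools (adjusted p = 0.977). The 95% intervals were -0.71 to 0.20 in wildtype and -0.89 to 0.01 in heterozygous pools. Hbb-y and the other globins sit near the top of each array, where quantile normalization replaces a value by the mean of its rank.

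Hba-x, the zeta chain, read 127, 216, 210 and 179 in wildtype heat pools, 186, 190, 157 and 192 in heterozygous heat pools and 190, 148 and 271 in null heat pools. The lowest value is again that of wildtype pool A, and the groups overlap. Null differed from wildtype heat pools by -0.07 ± 0.16 (adjusted p = 0.853) and heterozygous from wildtype by -0.16 ± 0.15 (adjusted p = 0.799). In controls it read 162, 214 and 183 in wildtype pools A, B and D and 155 and 166 in heterozygous pools A and B, and it was empty elsewhere, in all 4 null controls among others. An empty cell was not read as a low or a high value.

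**Figure D1:**
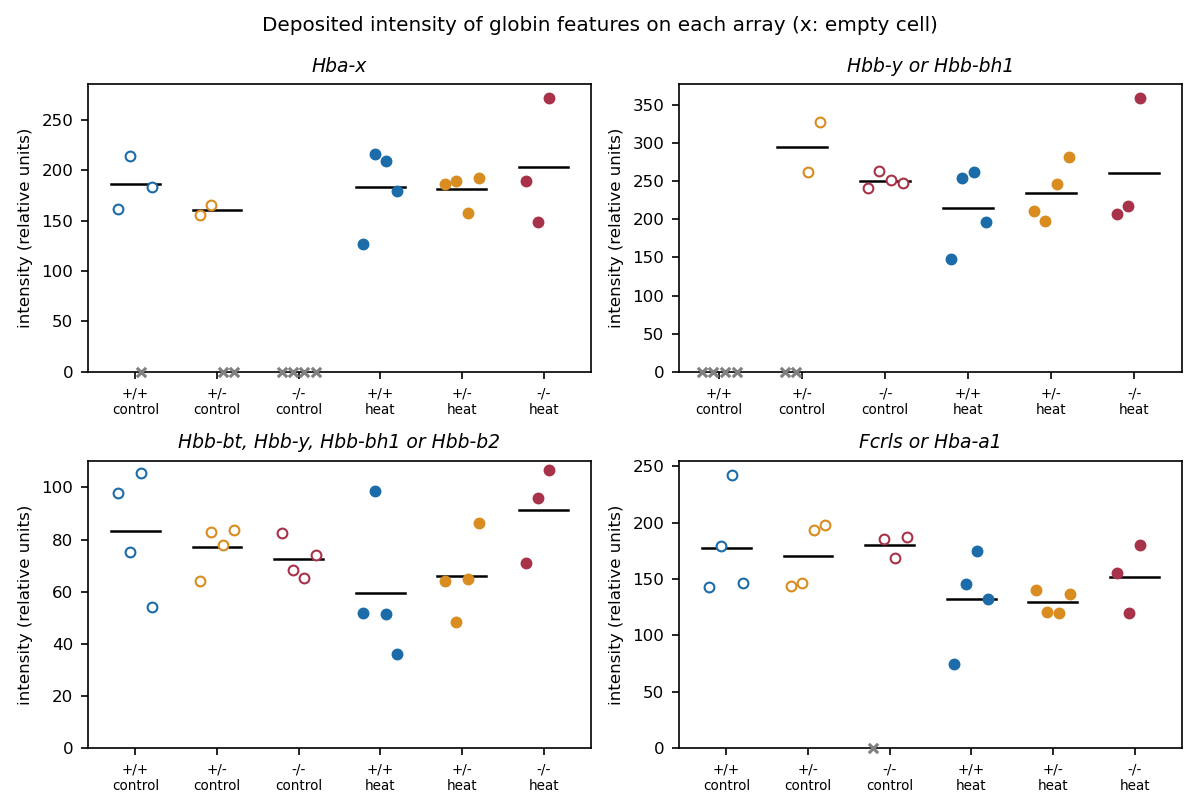
Deposited intensity (relative units, axis from 0) of 4 globin features on each array, with open points for control pools, filled points for heat pools, a line at the mean of the values present and a cross on the axis for an empty cell. Wildtype heat pool A is the leftmost point of its group and reads 127 for Hba-x, 148 for the feature of Hbb-y or Hbb-bh1 and 75.2 for the feature of Fcrls or Hba-a1.

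Features that name several globins were read as they are, with no gene of their own. One that names Hbb-y and Hbb-bh1, the beta-H1 chain, was empty in all 4 wildtype controls and in heterozygous controls A and B, and read 241 to 263 in null controls. In heat pools it read 148 to 262 in wildtype, 198 to 281 in heterozygous and 207 to 359 in null embryos, and null differed from wildtype by 0.25 ± 0.17 (adjusted p = 0.453). A feature naming Hbb-bt, Hbb-y, Hbb-bh1 and Hbb-b2, adult beta chains included, read 36.0 to 107 over the 23 arrays and passed no test.

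Alpha globin could be read only beside other genes. A feature that names Hba-a1 and Fcrls, an immune receptor-like gene, read 143 to 243 in wildtype controls against 75.2 to 175 in wildtype heat pools (-0.18 ± 0.18, adjusted p = 0.652). A further one, which names Hba-a1 and Ost4, a subunit of the oligosaccharyltransferase, fell with heat in null pools by 0.30 on the log2 scale (SE 0.08, adjusted p = 0.026). It read 174, 182, 187 and 198 in null controls and 133, 147 and 157 in null heat pools, so the groups do not overlap. In that comparison 5.33% of all features were called. The feature also differed with heat by -0.17 ± 0.07 in wildtype (adjusted p = 0.199) and -0.15 ± 0.07 in heterozygous pools (adjusted p = 0.313). The null response differed from the wildtype response by -0.13 ± 0.10 (adjusted p = 0.449). The call in null pools was lost without any one of 4 of the 7 arrays (null control B or C, null heat B or C; adjusted p = 0.0514 to 0.0858) and under 4 of 13 alternative settings. Which of its genes this feature reads was not tested, and Hba-a1 has the near-identical copy Hba-a2.

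Alas2, the first enzyme of haem synthesis in red cells, followed Hbb-y from array to array and passed no test in any comparison. It read 4.79, 4.12, 4.87 and 3.50 in wildtype controls, 3.98, 4.32, 4.81 and 5.45 in heterozygous controls and 3.84, 4.56, 3.98 and 4.36 in null controls. In heat pools it read 2.23, 3.56, 5.28 and 3.96 in wildtype, 3.76, 3.91, 3.24 and 3.90 in heterozygous and 3.68, 5.01 and 4.48 in null embryos. The lowest of the 23 values is once more wildtype heat pool A, and the other heat pools lie within the range of the controls or just below it.

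With heat Alas2 differed by -0.12 ± 0.19 in wildtype (adjusted p = 0.795), -0.25 ± 0.19 in heterozygous (adjusted p = 0.564) and -0.01 ± 0.21 in null pools (adjusted p = 0.977). Over the 23 arrays the log2 intensities of Hbb-y and Alas2 correlated with r = 0.813 and Spearman's rho = 0.762 (permutation p = 1e-05, the smallest that 100000 resamples give, and 4e-05; 4e-05 and 0.00016 after adjustment over 4 relations computed). Within groups r was 0.801, in the 12 controls 0.856 and in the 11 heat arrays 0.793, and without the 2 arrays farthest out in Hbb-y (wildtype heat A and heterozygous heat B) it was 0.782. These relations were chosen after the values were seen, and points share the normalization of their array. For all 4 relations values were permuted over all arrays regardless of group. The permutation p-values therefore do not allow for differences between the groups. Among the 12863 genes ranked, Alas2 had the highest r with Hbb-y, followed by Prdm8 (0.75) and Gimap6 (0.748). Hba-x was most like Vgll2 (0.93), Usp6nl (0.886) and Htr5b (0.859) over the 11 heat arrays.

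Wildtype heat pool A had the lowest of the 11 heat values for 4 of the 7 genes with a feature of their own (Hbb-y, Hba-x, Alas2 and Gata1), both as deposited and after normalization. No other heat pool was lowest for more than 1. No comparison of these 4 genes passed the test with or without that pool. On the same array the mean level of yolk sac markers was 0.51 on a log2 scale centred over the arrays, against -0.83 to -0.66 on wildtype heat arrays B to D, and its part in these low values was not tested.

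Gata1, the GATA factor of red cells and megakaryocytes, passed no test in any comparison. It read 0.841, 1.10, 0.862 and 0.813 in wildtype controls, 0.732, 0.657, 0.862 and 0.996 in heterozygous controls and 0.816, 0.983, 0.989 and 0.745 in null controls. In heat pools it read 0.681, 0.866, 1.10 and 0.958 in wildtype, 0.898, 1.003, 0.844 and 0.859 in heterozygous and 0.791, 0.787 and 1.25 in null embryos. All 6 groups overlap.

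The heat difference of Gata1 was -0.0044 ± 0.17 in wildtype (adjusted p = 0.993), 0.14 ± 0.17 in heterozygous (adjusted p = 0.732) and 0.12 ± 0.18 in null pools (adjusted p = 0.694). The 95% interval in wildtype pools was -0.35 to 0.34. Gata1, Klf1 and Epor lay near the middle of the heat arrays, between percentiles 38.0 and 53.8 of the features. On control arrays, where the dimmest cells are empty, they lay lower among the values present. Gata1 lay between percentiles 17.6 and 30.3 there. Dim signal may limit what could be seen, which was not tested. The genes most like Gata1 over the arrays were Nptx2 (r = 0.813), Efhd2 (0.706) and 4933427I22Rik (0.696, 22 arrays).

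**Figure D2:**
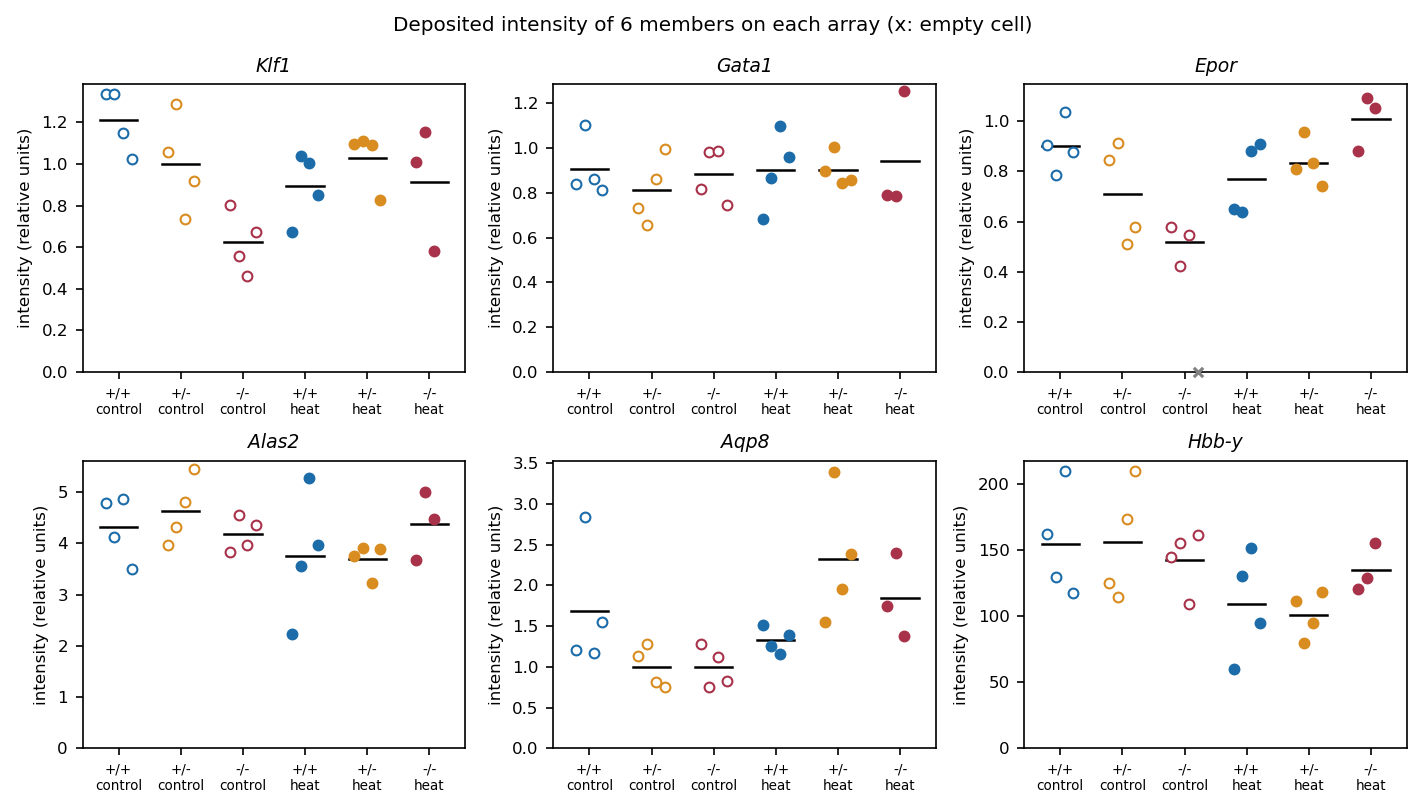
Deposited intensity (relative units, axes from 0) of 6 genes on each array, by p53 genotype and bath, with open points for control pools, filled points for heat pools, a line at the mean and a cross for an empty cell. Klf1 and Epor are low in the null controls, at 0.461 to 0.803 and 0.424 to 0.580, and Aqp8 is high in the heterozygous heat pools, at 1.55 to 3.39.

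In the control bath, null embryos had less Klf1 and Epor signal than wildtype embryos. Klf1, the zinc finger activator of globin genes, read 1.34, 1.34, 1.15 and 1.03 in wildtype controls and 0.803, 0.560, 0.461 and 0.672 in null controls. The highest null pool lies below the lowest wildtype pool. Klf1 fell by 1.09 on the log2 scale (SE 0.22, 2.13-fold, adjusted p = 0.0113), lower in 4 of 4 null pools.

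Heterozygous controls read 1.06, 1.29, 0.733 and 0.920 for Klf1, so pools A and B lie with wildtype, pool C lies in the null range and pool D lies between the null and wildtype ranges. Null differed from heterozygous controls by -0.76 ± 0.22 (adjusted p = 0.159) and heterozygous from wildtype by -0.33 ± 0.22 (adjusted p = 0.827). With the split score of the arrays in the model the null difference was -0.64 (adjusted p = 0.25), and with the yolk sac marker level of the arrays it was -1.01 (adjusted p = 0.0505). Across leaving out each array it stayed between -1.25 and -0.92, with adjusted p from 0.00723 to 0.0392.

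Epor read 0.906, 0.786, 1.04 and 0.878 in wildtype controls against 0.580, 0.424 and 0.547 in null controls A to C, where pool D is empty. These values do not overlap either. On null control arrays Klf1 lay between percentiles 3.73 and 21.6 of the values present and Epor between 2.19 and 11, against 30.6 to 41.2 and 19.5 to 31.5 on wildtype control arrays, so the low values sit at the dim end where cells are empty, and the part of the emptied cells in these differences was not tested. Epor fell by 0.95 on the log2 scale (SE 0.21, 1.93-fold, adjusted p = 0.017), lower in 3 of 3 null pools with a value. Heterozygous controls read 0.845, 0.913, 0.512 and 0.576, with C and D again beside the null pools. With the split score in the model the difference was -0.63 (adjusted p = 0.289), and with the yolk sac marker level it was -0.83 (adjusted p = 0.0758).

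These were 2 of the 6 genes tested, against 8.13% of all features called in null against wildtype controls. Aqp8 differed by -0.74 ± 0.27 without passing (adjusted p = 0.0923), and Gata1, Alas2 and Hbb-y differed by -0.08, -0.03 and -0.11, each with an SE of 0.17 to 0.22. Heterozygous against wildtype controls called 0 of the 6 (2, Epor and Aqp8, at an unadjusted p under 0.05; 0.00445% of all features called by limma). Null against heterozygous controls also called 0 (2, Klf1 and Epor, unadjusted; 0.0445% of all features).

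In wildtype pools no gene passed the test of heat against control: 0 of 6 were called, with 0 at an unadjusted p under 0.05, against 3.05% of all features called by limma. Klf1 read 0.674, 1.04, 1.005 and 0.849 in wildtype heat pools (-0.44 ± 0.22, adjusted p = 0.302) and Epor 0.650, 0.637, 0.883 and 0.909 (-0.23 ± 0.20, adjusted p = 0.581). In both genes the heat and control pools overlap.

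In null pools Epor rose with heat. It read 0.882, 1.09 and 1.05 in null heat pools A to C against 0.424 to 0.580 in the 3 null controls with a value, with no overlap, and rose by 1.10 ± 0.23 (2.14-fold, adjusted p = 0.01) in 3 of 3 heat pools. Without null heat pool B the adjusted p was 0.0502. Only 4 of the fits that left out an array tested Epor, because without null control A, B or C too few values remained. Epor was 1 of 6 genes called, against 5.33% of all features. The null heat pools lie within the range of the wildtype controls (0.786 to 1.04) or just above it, and null against wildtype heat pools differed by 0.41 ± 0.17 (adjusted p = 0.31).

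The heat response of Epor was higher in null than in wildtype pools, where it did not rise, by 1.33 ± 0.30 (adjusted p = 0.0382). It was 1 of the 6 genes called in that difference, against 0.996% of all features. This difference shares the null and wildtype control arrays with the comparison of controls, so the low null controls enter both. Its call was lost without any one of 8 of the 12 arrays that could be left out with Epor still tested, for example without null heat B (adjusted p = 0.114). With the replicate block it was 1.33 (adjusted p = 0.0524), and with the yolk sac marker level 1.06 (adjusted p = 0.362).

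Klf1 in null heat pools read 1.01, 1.15 and 0.580. Pools A and B lie above all null controls and pool C lies among them (0.65 ± 0.23, adjusted p = 0.0931). Null heat C also has a low split score, -2.75, against -1.09 and -0.75 in null heat A and B. Its Epor value lies between theirs, and the part of the split in the values of this pool was not tested. In the difference of the null and wildtype responses Klf1 was at 1.09 ± 0.32 (adjusted p = 0.0908). In heterozygous heat pools Klf1 read 1.09, 1.11, 1.09 and 0.827 and Epor 0.810, 0.956, 0.833 and 0.741, and both overlap their controls (0.09 ± 0.22, adjusted p = 0.9, and 0.31 ± 0.20, adjusted p = 0.466).

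**Figure D3:**
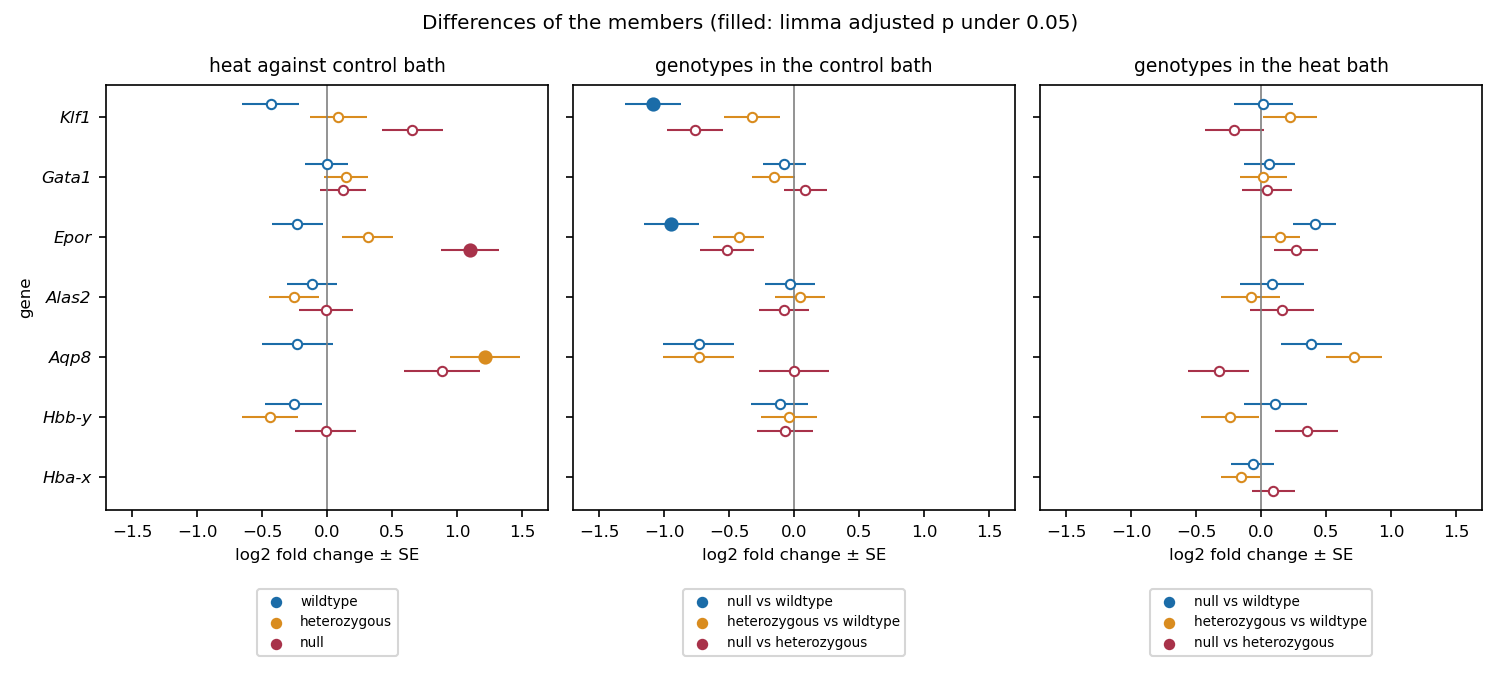
Log2 fold change ± SE (limma) of each gene for heat against control in each genotype, for genotype pairs in the control bath and for genotype pairs in the heat bath; filled points passed the adjusted p threshold of 0.05. Klf1 (-1.09) and Epor (-0.95) are called in null against wildtype controls, Epor (1.10) with heat in null pools and Aqp8 (1.22) with heat in heterozygous pools, and no point is filled among the heat pools.

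The profiles most like Klf1 over the arrays were those of Csk (r = 0.899, 22 arrays), Tnk2 (0.892, 21 arrays) and Snw1 (0.883, 22 arrays). Those most like Epor were Asf1a (0.879), St3gal2 (0.878) and Lyl1 (0.872), each over 22 arrays. On the 8 arrays with a split score under -2, normalized Klf1 ran from 0.396 to 0.902, and wildtype heat A (0.697) and D (0.850) lie in the same range with a higher score. Normalized Epor ran from 0.360 to 0.737 on the 6 of them where it was measured other than null heat C (1.04), and wildtype heat A (0.677) and B (0.635) lie in that range. With the score as a covariate in limma's fit, Epor rose by 0.88 with heat in null pools (adjusted p = 0.0257), and the difference of null from wildtype controls was -0.63 for Epor (adjusted p = 0.289). Because the scores form separate clusters, no correlation is given.

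Aqp8, a channel for water and other small molecules, rose with heat in heterozygous pools. It read 1.13, 1.28, 0.815 and 0.754 in heterozygous controls and 1.55, 3.39, 1.95 and 2.38 in heterozygous heat pools. Every heat pool lies above every control pool, and the rise was 1.22 ± 0.27 (2.32-fold, adjusted p = 0.0181, higher in 4 of 4 pools). Aqp8 was 1 of 6 genes called, against 2.3% of all features. Without heterozygous control C, control D or heat B the adjusted p was 0.0607, 0.0645 and 0.0804.

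In null pools Aqp8 read 1.27, 0.752, 1.12 and 0.826 in controls and 1.75, 2.40 and 1.37 after heat. The groups do not overlap, and the difference was 0.88 ± 0.29 (adjusted p = 0.0755). In wildtype pools it read 1.21, 2.83, 1.17 and 1.55 in controls and 1.51, 1.25, 1.15 and 1.39 after heat. The heat and control values overlap, control pool B is high and heat pool C is just below the lowest control (-0.23 ± 0.27, adjusted p = 0.71).

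The heat response of Aqp8 was higher in heterozygous than in wildtype pools by 1.45 ± 0.38, which did not pass (adjusted p = 0.352). That difference called 0 of 6 genes (1, Aqp8, at an unadjusted p under 0.05) and 0% of all features by limma (1343 of them at an unadjusted p under 0.05). The difference between the null and heterozygous responses called 0 of 6 (1, Epor, unadjusted), against 0.0178% of all features. The interval for Aqp8 between the null and heterozygous responses ran from -1.16 to 0.50.

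Markers of the yolk sac had levels that ran with Aqp8. Of 16 such genes 15 are on the array and 14 were tested (among them Afp, Ttr, 4 apolipoproteins and Cubn, an endocytic receptor of yolk sac endoderm). With heat their median log2 fold change was 0.554 in heterozygous and 0.483 in null pools, each with 14 of 14 above 0. In wildtype pools it was -0.637, with 0 of 14 above 0. Medians over all features were 0.0146, -0.0353 and 0.0106 in heterozygous, null and wildtype pools. Limma called 0 in heterozygous pools, with 6 at an unadjusted p under 0.05 (2.3% of all 22490 features called, 3512 unadjusted). In null pools it called 0, with 2 unadjusted (5.33% of all features called, 5769 unadjusted). In wildtype pools it called 1, with 7 unadjusted (3.05% of all features called, 3969 unadjusted). That 1 was Apoa2 (-1.40 ± 0.35, adjusted p = 0.031), lost without any one of 6 of the 8 arrays (adjusted p = 0.0704 to 0.0938). In the difference of the null and wildtype responses 1 marker of the 14 was called, against 0.996% of all features. It was Ambp, a plasma protein gene (1.01 ± 0.24, adjusted p = 0.0425, and 0.0566 with the replicate block). Their mean level per array, centred over the arrays, ran from 0.20 to 0.88 in heterozygous heat pools and from -0.71 to 0.28 in heterozygous controls. In wildtype heat pools it was 0.51 in pool A and -0.83 to -0.66 in the others.

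Over the 23 arrays this level and Aqp8 correlated with r = 0.749 and rho = 0.758 (permutation p = 7e-05 and 8e-05, adjusted 0.00014 and 0.00016). These permutations too ran over all arrays regardless of group. In controls r was 0.853, in heat arrays 0.816 and within groups 0.723, and it was 0.735 without null control B and wildtype heat C. With that level as a covariate the rise of Aqp8 in heterozygous pools was 0.78 (adjusted p = 0.0945). How far the yolk sac level accounts for the Aqp8 values was not tested beyond this covariate. The genes most like Aqp8 over the arrays were Rhox5 (r = 0.866, 22 arrays), Nostrin (0.857) and Fmr1nb (0.844).

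Hbb-y ran the other way. Its r was -0.611 and rho -0.658 with the yolk sac level (permutation p = 0.0021 and 0.00079, adjusted 0.0028 and 0.00099). It was -0.572 with Aqp8 (rho -0.649, permutation p = 0.0046 and 0.00099, adjusted 0.0046 and 0.00099). In controls and in heat arrays r with the yolk sac level was -0.606 and -0.609, and without null control B and wildtype heat C it was -0.545.

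**Figure D4:**
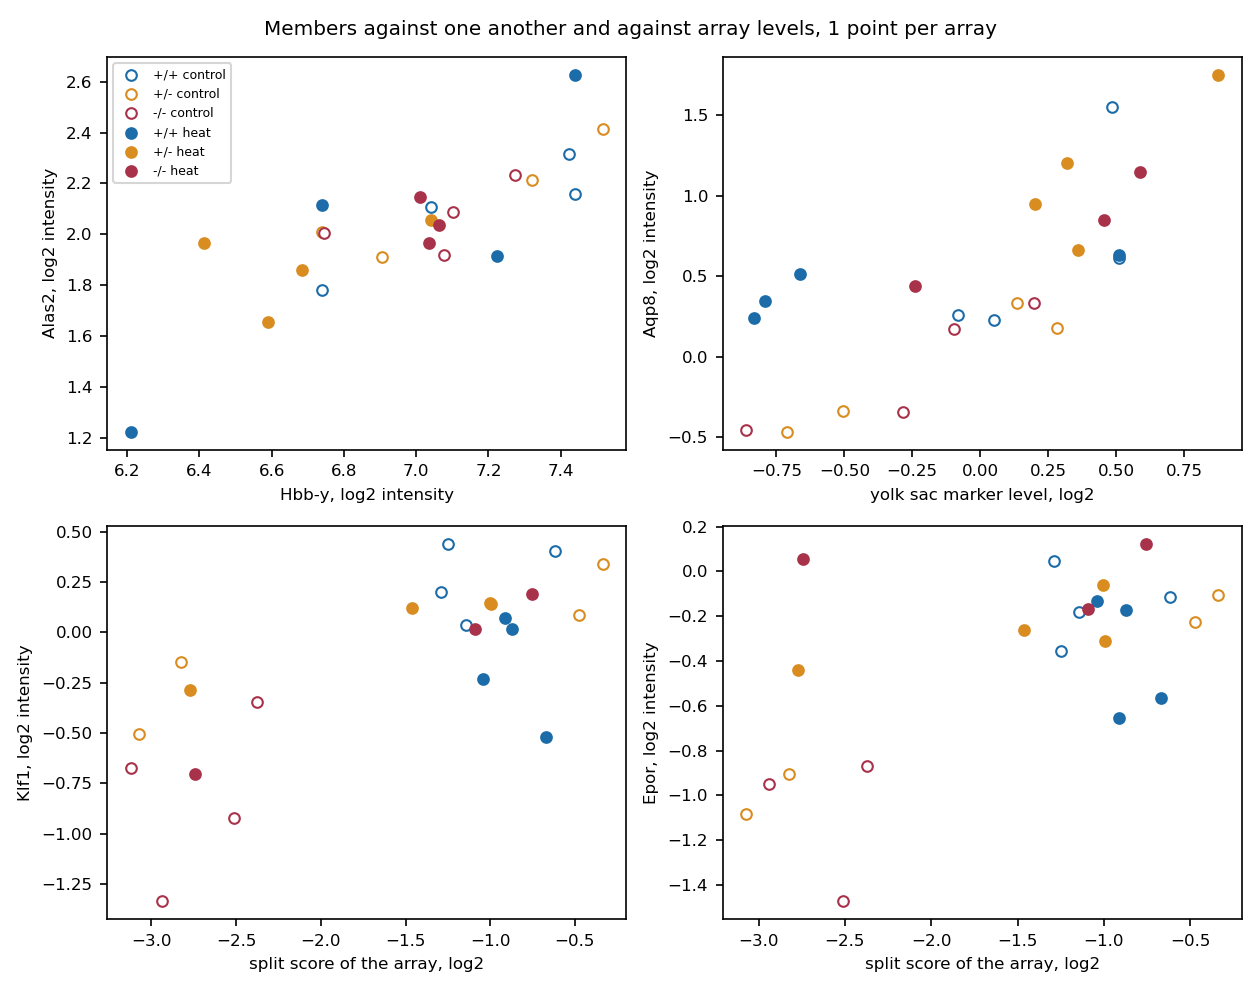
Log2 normalized intensities, 1 point per array: Hbb-y against Alas2 (r = 0.813), the centred mean log2 level of yolk sac markers against Aqp8 (r = 0.749), and the split score of the array against Klf1 and against Epor. Arrays with a split score under -2 have normalized Klf1 of at most 0.902 and, except for null heat C, Epor of at most 0.737; 2 wildtype heat arrays with higher scores overlap them in each gene.

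Among the heat pools themselves no gene of the 7 passed a test between genotypes. Null against wildtype heat pools called 0 of 7 (1, Epor, at an unadjusted p under 0.05), against 0.0791% of all features by limma. Heterozygous against wildtype heat pools called 0 of 7 (1, Aqp8, unadjusted), against 0.00439% of all features. There Aqp8 was 0.71 ± 0.22 higher in heterozygous pools (adjusted p = 0.389), with no overlap and a gap from 1.51 to 1.55. The yolk sac markers were higher in the same pools by a median of 0.958 (15 of 15 above 0, 0 called by limma). Unadjusted, 14 of them were under 0.05, against 2113 of all 22769 features. Null against heterozygous heat pools called 0 of 7 (0 unadjusted) and 0% of all features by limma (705 unadjusted).

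The wider red cell program was read from 7 lists of 105 genes in all, of which 86 are on the array and 72 were tested (75 among heat pools). In null against wildtype controls 1 rose and 8 fell (12.5% of the 72, against 8.26% of all genes and 8.13% of all features called), with 48 of 72 below 0 and a median of -0.0766, against 0.0357 over all 12863 genes. With the split score as a covariate 0 of the 72 were called, and the count ran from 3 to 9 when single arrays were left out. Of 18 transcription genes 3 fell: Klf1, Lyl1 (-0.90 ± 0.17, adjusted p = 0.0101), a relative of the blood regulator Tal1, and Klf3 (-1.45 ± 0.30, adjusted p = 0.0123), a CACCC-binding factor that often represses. Of 8 genes of erythropoietin signalling Epor and the kinase gene Pim1 fell (-1.43 ± 0.37, adjusted p = 0.0241), and of 12 haem genes Uros (-0.55 ± 0.15, adjusted p = 0.0329) and Urod fell, both of which act midway in haem synthesis. Among iron genes the endosomal ferrireductase Steap3 rose, and among cytoplasmic genes Bpgm, which makes the haemoglobin effector bisphosphoglycerate, fell. Urod, Steap3 and Bpgm were named after their values were seen. The call of Pim1 was lost without any one of 5 of the 8 arrays (adjusted p = 0.0535 to 0.0781) and that of Uros without any one of 7 (adjusted p = 0.0542 to 0.124).

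With heat in null pools 3 of the 72 rose and 1 fell (5.56%, against 6.1% of all genes and 5.33% of all features called), with 46 above 0 and a median of 0.149 against -0.0126 over all genes. Klf3 (1.76 ± 0.32, adjusted p = 0.00483), Lyl1 (1.02 ± 0.19, adjusted p = 0.00505) and Epor rose, and Steap3 fell (-0.49 ± 0.14, adjusted p = 0.045). The call of Steap3 was lost whichever of the 7 arrays was left out (adjusted p = 0.061 to 0.126), and those of Klf3 and Lyl1 were kept in all 7 cases. These genes differ the other way in null against wildtype controls, and both comparisons hold the same 4 null control arrays. Lyl1 was also called in the difference between the null and wildtype responses (1.07 ± 0.26, adjusted p = 0.0456, lost without any one of 12 of the 15 arrays at 0.0647 to 0.109). There 2 of 72 were called, both above 0 (2.78%, against 0.669% of all genes and 0.996% of all features), and the median was 0.169 against 0.0206.

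Counts with heat were lower in the other genotypes, which was not tested as a difference. In wildtype pools 1 of 72 fell (1.39%, against 3.58% of all genes and 3.05% of all features), the iron transporter Slc11a2 (-0.51 ± 0.13, adjusted p = 0.0385). That call was lost without any one of 6 of the 8 arrays (adjusted p = 0.0616 to 0.126), and the median was -0.0505 against -0.0254 over all genes. In heterozygous pools Aqp8 was the 1 gene of 72 called (1.39%, against 3.09% of all genes and 2.3% of all features), and the median was 0.0236 against -0.00427. The comparisons of heterozygous with wildtype and with null controls called 0 of 72 (0.00445% and 0.0445% of all features). At an unadjusted p under 0.05 in limma were 4 and 14 of the 72, against 1318 and 4051 of all 22490 features. Comparisons of null with wildtype, heterozygous with wildtype and null with heterozygous heat pools called 0 of 75. There 9, 5 and 4 were under 0.05 unadjusted, against 3432, 2113 and 705 of all 22769 features. The difference of the null from the heterozygous response and that of the heterozygous from the wildtype response also called 0. Unadjusted, 10 and 2 of the 72 were under 0.05, against 3198 and 1343 of all 22490 features.

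**Figure D5:**
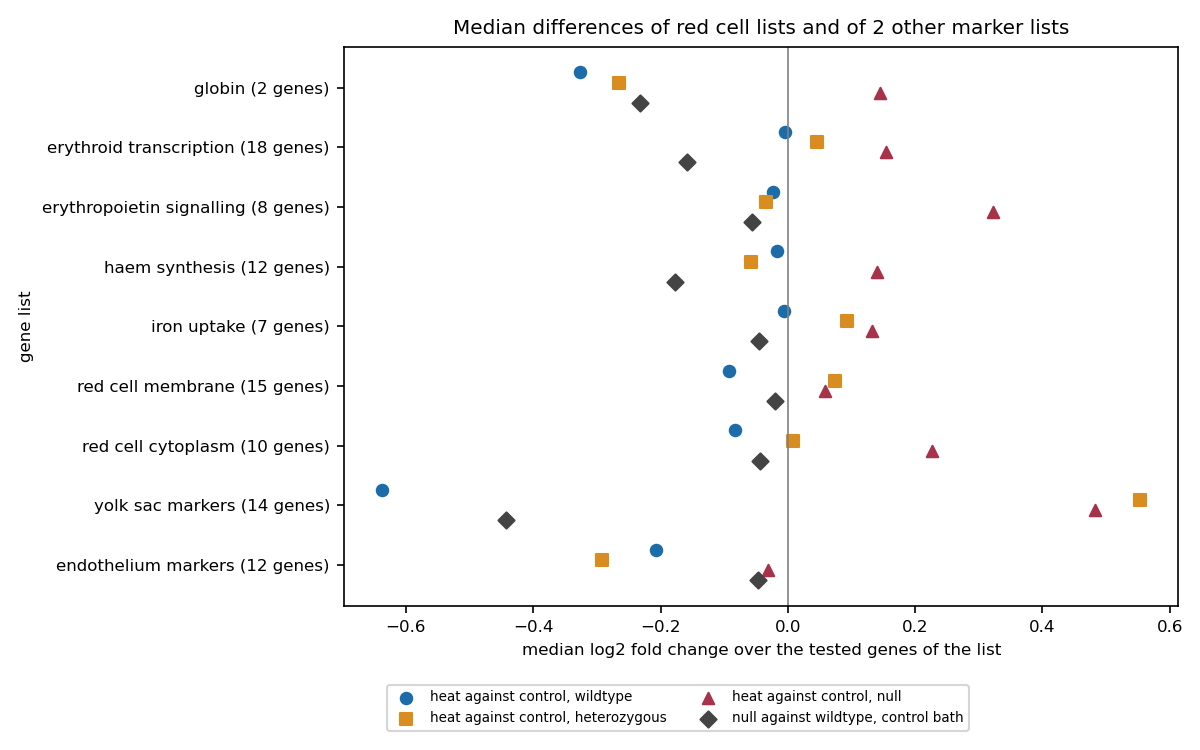
Median log2 fold change over the tested genes of 7 red cell lists and of the yolk sac and endothelium marker lists, in 4 comparisons. Medians of red cell lists stay between -0.33 and 0.33, and the yolk sac list lies at -0.637, 0.554 and 0.483 with heat in wildtype, heterozygous and null pools.

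Markers of other cell types were read beside these genes. Of 12 endothelium markers tested 3 fell in null against wildtype controls (8.13% of all features were called), with Cldn5 (-1.31 ± 0.28, adjusted p = 0.0131) and Cd34 (-1.17 ± 0.27, adjusted p = 0.0172), a marker shared with blood progenitors, leading. Cldn5 was kept whichever array was left out, and Cd34 was lost without wildtype control D, null control B or null control D (adjusted p = 0.0507 to 0.0541). The mean endothelium level ran from 0.04 to 0.21 in wildtype controls, from 0.05 to 0.25 in heterozygous controls and from -0.26 to 0.03 in null controls, so the null range lies below both others, and its part in the values of Klf1 and Epor was not tested.

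With heat 2 of the 12 endothelium markers fell in wildtype pools (3.05% of all features were called), Emcn (-0.75 ± 0.18, adjusted p = 0.0201) and Pecam1 (-0.84 ± 0.23, adjusted p = 0.0469). In heterozygous pools Emcn fell (-0.71 ± 0.18, adjusted p = 0.0342; 2.3% of all features), and in null pools Cldn5 rose (1.04 ± 0.30, adjusted p = 0.0446; 5.33% of all features). The call of Pecam1 was lost without any one of 7 of the 8 arrays (adjusted p = 0.0598 to 0.133) and with the replicate block (0.0539), and that of Cldn5 without any one of 5 of the 7 (0.081 to 0.169) and with the block (0.0511). The calls of Emcn were lost without any one of 3 and of 5 of the 8 arrays (0.0627 to 0.0747 and 0.0614 to 0.125).

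Of 9 megakaryocyte markers 1, the von Willebrand factor gene Vwf, was tested. It fell with heat in heterozygous pools (-0.66 ± 0.17, adjusted p = 0.0368), where 2.3% of all features were called. The call of Vwf was lost without any one of 7 of the 8 arrays (0.0655 to 0.139). Of 13 immune markers 3 were tested, 2 among heat pools, and limma called 0 in any comparison (0 also at an unadjusted p under 0.05). Of 10 neural tube markers, all tested, 2 regulators were called in null against wildtype controls, against 8.13% of all features. That comparison also holds the calls of Klf1 and Epor. Pax6 rose (0.49 ± 0.14, adjusted p = 0.0318) and Otx2 fell (-0.95 ± 0.27, adjusted p = 0.0347). These calls were lost without any one of 6 and of 7 of the 8 arrays (0.0664 to 0.0997 and 0.0618 to 0.123). Of 7 heart markers tested limma called 0 in null against wildtype controls (1 unadjusted). It also called 0 with heat in each genotype (1, 0 and 1 unadjusted in wildtype, heterozygous and null pools). Of all 22490 features 5820 were at an unadjusted p under 0.05 between those controls. With heat 3969, 3512 and 5769 were. Of 4 trophoblast and decidua markers tested 1 was called with heat in null pools, against 5.33% of all features. It was the matrix gene Dcn, which rose (0.94 ± 0.23, adjusted p = 0.0235, and 0.119 without null heat B). The part of these tissues in the red cell values was not tested.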

How the data were processed

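RNA of pooled whole embryos was measured on CodeLink 1-colour arrays. The deposited values are linear intensities from the authors' value table. Scanner, background step and normalization: not given in the sources used here. Cells that were empty or held the code for missing were not used. Quantile normalization used the 18699 probes with a positive value on all 23 arrays, and other values followed each array's curve by interpolation on the log2 scale. Values were floored at an intensity of 0.196. Probes entered the fit where every group had 3 or more values and 3 or more arrays were above 0.671 (percentile 40 of the heat arrays). Heat-bath comparisons were fitted on the 11 heat arrays, normalized among themselves, so that features empty in controls could be tested. Differences were fitted with limma 3.58.1 in R 4.3.3 (lmFit, eBayes with an intensity trend) on group means. The fit was tested on simulated data. The number of arrays limits the precision. Gene names are those of the platform annotation, brought up to date with RefSeq (GRCm38.p6) by their gene IDs. Of 36227 probes, 21615 have 1 symbol (21487 matched by ID), 681 have several and 13931 have none listed. A gene is represented by its tested probe of highest mean.

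The genes and lists were chosen with earlier results of these data known. Named were every listed gene, the 4 other red cell genes of smallest p past the threshold in a comparison, for each listed gene the 3 genes of highest Pearson r, at most 2 markers of another cell type's list in a comparison, and Hspb1 and Ccng1. Replicate letters are shared by the groups. Deviations from the group means had a median r of 0.0703 over 55 same-letter pairs of arrays (27 over 0.1). Over 165 other-letter pairs the median r was -0.0355 (50 over 0.1). Both sets ranged widely (-0.352 to 0.672 and -0.67 to 0.705). The letters were not taken to pair the pools in the main fit, and a replicate block was fitted as an alternative. Permutation tests and figures used Python with scipy and matplotlib.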

Additional observations from a re-analysis of the deposited data

Results flagged for a closer look

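In 48 sets of values (1 feature in 1 group of 4 to 10 arrays), 3 arrays stood apart from the rest of their group by Dixon's ratio, and chance alone marks about 1 set in 20. Klf1 on heterozygous heat array D was at a normalized intensity of 0.820, against 1.09 to 1.11 on the other 3. That array also has a split score of -2.77. The feature that names Ost4 and Hba-a1 was at 144.0 on wildtype control A, against 163.0 to 167.0 on the others. On heterozygous heat C the same feature was at 137.0, against 149.0 to 151.0.

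The heat response differed between null and wildtype pools in a test of the difference itself (limma, adjusted over all features) for Epor, by 1.33, and for Lyl1, by 1.07. The Lyl1 call was lost without any one of 12 of the 15 arrays (range of the difference 0.95 to 1.11 where lost). The null control arrays, which are low in both genes, enter these values.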

How the results depend on the processing

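Of 24 counts of calls, 14 stayed within 1.5 times under every alternative other than leaving out an array. All 14 were 0 in the main fit, and every count above 0 moved further than that under some alternative. Of 27 calls of single genes or features 3 were kept in each of those alternatives that tested the gene (2 were tested in all 13). In each fit without an array that tested the gene 7 were kept (6 with every array left out in turn). Red cell genes called with heat in wildtype pools (1) were 3 with median centring, 6 in values as deposited, 2 with the split score, 2 with the yolk sac level and 0 with only the groups compared, the highest value as covariate or without wildtype control A and heterozygous controls A and B. In heterozygous pools (1) they were 2 with median centring, 4 with the highest value, 3 with the split score, 3 without those 3 controls and 0 with only the groups compared or the yolk sac level. In null pools (4) they were 2 with the 60th percentile filter, 14 with the highest value and 7 without those 3 controls. Null against wildtype controls (9) gave 17 with only the groups compared, 5 with the highest value, 0 with the split score and 1 with the yolk sac level. The difference of the null and wildtype responses (2) gave 4 in values as deposited and 0 with median centring, normalizeQuantiles, the 60th percentile filter, the replicate block or the yolk sac level. Of the listed genes, 1 was called with heat in wildtype pools (0) with the yolk sac level. In heterozygous pools (1) the number was 0 with only the groups compared or the yolk sac level, and 2 without the 3 controls. In null pools (1) it was 0 with the 60th percentile filter, 3 with the highest value and 2 without the 3 controls. Null against wildtype controls (2) gave 0 with that filter, the split score or the yolk sac level, and the response difference (1) gave 0 with median centring, normalizeQuantiles, that filter, the replicate block or the yolk sac level. The 60th percentile filter leaves out Klf1 and Epor. Of the 27 calls the replicate block ended 5, those of Pecam1 with heat in wildtype pools, Cldn5 with heat in null pools and Epor, Lyl1 and Ambp in the response difference (adjusted p = 0.0539, 0.0511, 0.0524, 0.0566 and 0.0566). Quantile normalization of all cells (normalizeQuantiles), which maps the control columns without their empty dim and bright cells onto the full range, called 67, 65 and 68 red cell genes and 5, 6 and 5 listed genes with heat in wildtype, heterozygous and null pools. Under it Slc11a2 (0.43), Emcn (0.12 in wildtype, 0.10 in heterozygous pools), Pecam1 (0.19), Vwf (0.30) and Steap3 (0.65) turned upward. Leaving out each array gave 0 to 2, 0 to 1 and 2 to 7 red cell genes with heat in wildtype, heterozygous and null pools, 3 to 9 in null against wildtype controls, 0 to 4 in null against heterozygous controls and 0 to 2 in the response difference. For listed genes the ranges were 0 to 0, 0 to 1, 0 to 2, 1 to 2, 0 to 1 and 0 to 1, and 0 to 0 in every other comparison. The cause of these changes was not tested. The share of all features called under each alternative is not given here. These counts are therefore not read as particular to red cell genes. The yolk sac covariate and the setting without 3 controls were added after seeing the data.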
